A study of Rattus norvegicus with 17 samples.

Results

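Mpo, Ctsg, Ngp and Fcnb are granule genes of the neutrophil lineage, and their transcripts were followed here in the spinal cord of 17 rats. They are 4 of the 32494 Ensembl genes counted: ENSRNOG00000008310 (Mpo), ENSRNOG00000020647 (Ctsg), ENSRNOG00000024330 (Ngp) and ENSRNOG00000009342 (Fcnb). The study selected them on ±st(SCI), its contrast of stimulated with unstimulated injured rats in these same libraries, and they were put together here as granule genes with that result known. That contrast, and each contrast of B or C with a single other group, is therefore given for them as a description, with no test and no call.

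Each library held the RNA of 1 female Sprague-Dawley rat aged 10 to 12 weeks, with pieces of cervical, thoracic and lumbar cord combined. Group A (4 rats) had no spinal cord injury (SCI) and no stimulation, group B (3 rats) had SCI alone, group C (3 rats) had SCI and stimulation, group D (2 rats) had SCI, stimulation and pimozide at 1 mg/kg, and group E (5 rats) was stimulated without SCI. The injury was a moderate contusion at T8, and rats without it had a sham operation, in some a laminectomy. At 72 h a microelectrode was placed in the nucleus raphe magnus (NRM) of the brainstem in every group under isoflurane. Where the group was stimulated, 2 h of electrical pulses were given, and in group D pimozide was injected 1 h before. Pimozide is a dopamine receptor antagonist that also blocks other channels and receptors. The study gave it as a non-specific antagonist of a serotonin receptor, to assess a possible part of serotonin release. The study's methods and series design describe group E as stimulated, but the treatment label of its 5 rats says unstimulated. The cord was taken directly after the stimulation period, with the pia-arachnoid on it, and a library is a mixture of all cells in those pieces.

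Neutrophils mature in bone marrow, and they fill their granules in sequence. Myeloperoxidase and the serine protease cathepsin G, encoded by Mpo and Ctsg, are packed into the primary (azurophil) granules of promyelocytes. Ngp encodes neutrophilic granule protein, a cathelicidin-related protein of the secondary granules made by myelocytes. Fcnb encodes ficolin B, a myeloid lectin that binds sugars on microbes and can start the lectin pathway of complement. Transcripts of the primary and secondary granule proteins are scarce in circulating neutrophils, whereas the proteins persist.

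The 250 bases before the start of each gene are shown because these promoters are where the factors of granulocyte maturation are known to act in this family. They were taken from RefSeq on GRCr8 for all 4 genes, matched by symbol, and each is printed 5′ to 3′ on the strand of its gene. GRCr8 is not the build on which the reads were counted. Capitals mark the letters TTNNGNAA (C/EBP), GAGGAA (PU.1), TGTGGT (RUNX) and AACGG (MYB), searched on both strands; no match overlapped another. Mpo is at chr10:73092152-73092401 (plus strand), Ctsg at chr15:33907597-33907846 (minus), Ngp at chr8:119272355-119272604 (plus) and Fcnb at chr3:31800189-31800438 (minus).
Mpo: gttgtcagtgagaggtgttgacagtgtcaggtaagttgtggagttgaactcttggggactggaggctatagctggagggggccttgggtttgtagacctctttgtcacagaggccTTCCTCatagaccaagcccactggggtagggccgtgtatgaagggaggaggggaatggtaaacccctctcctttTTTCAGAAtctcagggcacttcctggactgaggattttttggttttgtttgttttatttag
Ctsg: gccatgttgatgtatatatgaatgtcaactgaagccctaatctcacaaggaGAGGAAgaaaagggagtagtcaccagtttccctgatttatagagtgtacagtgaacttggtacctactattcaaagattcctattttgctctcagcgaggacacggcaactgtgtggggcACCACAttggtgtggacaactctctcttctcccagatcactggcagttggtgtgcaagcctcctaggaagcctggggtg
Ngp: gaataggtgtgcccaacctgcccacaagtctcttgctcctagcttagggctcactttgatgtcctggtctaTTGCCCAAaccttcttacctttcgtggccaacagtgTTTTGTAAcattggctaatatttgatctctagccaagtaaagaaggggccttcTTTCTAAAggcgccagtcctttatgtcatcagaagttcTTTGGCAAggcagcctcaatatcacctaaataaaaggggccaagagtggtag
Fcnb: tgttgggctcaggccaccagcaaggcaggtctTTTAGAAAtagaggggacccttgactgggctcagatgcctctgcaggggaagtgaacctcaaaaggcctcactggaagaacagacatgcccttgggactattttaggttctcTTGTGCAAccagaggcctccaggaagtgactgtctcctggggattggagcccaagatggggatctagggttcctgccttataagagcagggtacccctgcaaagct
The C/EBP letters were in the promoters of Mpo, Ngp and Fcnb, and in 37.2% of the 33469 promoters of the same length. The PU.1 letters were in Mpo and Ctsg (23.3% of all promoters), the RUNX letters in Ctsg alone (14.5%), and the MYB letters in none of the 4 (14.3%). The promoter of Ngp held 4 matches to the C/EBP letters and that of Fcnb held 2. A match is a string of letters and not a site known to be bound in these rats.

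The libraries held 9852873 to 14137717 counts on genes, so these 4 genes were read from few counts. Mpo had 2 to 142 counts in a rat, Ngp 6 to 125, Fcnb 2 to 163 and Ctsg 0 to 33. The 4 genes passed the filter on low counts, as did 15460 genes in all. Levels are given as TMM-scaled CPM, counts scaled to a common library size, and since no transcript length of the counted build was used, a level is compared between rats and not between genes. The coefficient of variation between rats beyond counting, estimated for each gene in edgeR, was 0.602 for Mpo, 0.780 for Ctsg, 0.581 for Ngp and 0.406 for Fcnb. Fewer cells of a type and less RNA per cell cannot be told apart in such libraries.

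Mpo was counted in the cord of every intact rat, at levels that differed widely between rats. In group A, rats 70, 82, 83 and 84 had 0.938, 1.25, 4.27 and 5.43 CPM. In group E, rats 69, 85, 86, 87 and 88 had 0.680, 2.03, 0.140, 3.10 and 1.40 CPM. These groups overlapped, and the highest rat stood 5.79 times above the lowest in A and 22.1 times in E. The lowest rat of E, rat 86, had 2 counts, fewer than the 3 taken as the floor of detection. Of the injured rats, 91, 94 and 95 in group B had 1.47, 1.06 and 1.44 CPM, rats 89, 90 and 93 in group C had 10.95, 13.1 and 4.95 CPM, and rats 75 and 76 in group D had 2.71 and 0.818 CPM. Group B lay close together within the range of intact rats, group C lay above B and D without overlap, and its lowest rat was below rat 84 of group A. From low to high the group means were B (1.32 ± 0.230 CPM, SD, n = 3), E (1.47 ± 1.16, n = 5), D (1.76 ± 1.34, n = 2), A (2.97 ± 2.22, n = 4) and C (9.66 ± 4.21, n = 3), and each group overlapped with the next in this order.

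Ctsg, the other primary granule gene, followed the same order of groups at a depth that left several rats near 0. Group A had 0, 0.392, 1.42 and 2.96 CPM in rats 70, 82, 83 and 84, and group E had 0, 0.703, 0.0700, 1.03 and 0.350 CPM in rats 69, 85, 86, 87 and 88. The 0 counts of rats 70 and 69 allow up to 0.304 and 0.255 CPM (3 counts), so Ctsg was not detectable there rather than absent. Group B had 1, 1 and 3 counts, or 0.0917, 0.0962 and 0.289 CPM, in rats 91, 94 and 95. In group C, rats 89, 90 and 93 had 2.69, 3.04 and 1.82 CPM, and in group D rats 75 and 76 had 0.642 and 0.363 CPM. Groups B and D did not overlap with C, whereas rat 84 of the intact, unstimulated group was as high as the stimulated injured rats: its 30 counts have an exact 95% Poisson interval of 20.2 to 42.8, which covers counting error only. The mean level was 0.159 ± 0.113 CPM (SD, n = 3) in B, 0.431 ± 0.435 (n = 5) in E, 0.502 ± 0.197 (n = 2) in D, 1.19 ± 1.32 (n = 4) in A and 2.52 ± 0.626 (n = 3) in C, again with overlap between each group and the next.

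Ngp, of the secondary granules, was higher in several intact rats of both groups, rats 83, 84, 85, 87 and 88, than in any injured rat of groups B and D. Rats 70, 82, 83 and 84 of group A had 0.625, 2.51, 4.18 and 6.22 CPM, and rats 69, 85, 86, 87 and 88 of group E had 1.11, 4.22, 0.700, 8.45 and 4.99 CPM. In group B, rats 91, 94 and 95 had 1.19, 1.35 and 2.41 CPM, and in group D rats 75 and 76 had 3.64 and 2.82 CPM. Group C had 10.3, 11.5 and 8.25 CPM in rats 89, 90 and 93. The C rats lay above all rats of A, B and D, but rat 87 of group E was above rat 93. The means rose from B (1.65 ± 0.662 CPM, SD, n = 3) through D (3.23 ± 0.579, n = 2), A (3.38 ± 2.38, n = 4) and E (3.89 ± 3.16, n = 5) to C (10.03 ± 1.65, n = 3), and only B and D, the lowest neighbours, did not overlap, a separation found in 10.7% of genes tested.

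Fcnb had another order, with every injured group above both intact groups in its mean. Group A had 0.208, 1.25, 1.61 and 2.66 CPM in rats 70, 82, 83 and 84, and group E had 0.510, 1.95, 0.980, 2.25 and 1.58 CPM in rats 69, 85, 86, 87 and 88. Group B had 3.39, 2.12 and 3.47 CPM in rats 91, 94 and 95, group C had 14.2, 8.19 and 5.90 CPM in rats 89, 90 and 93, and group D had 5.56 and 5.997 CPM in rats 75 and 76. Of the 8 injured rats, only rat 94 of group B was below an intact rat, and the D rats, which lay below group C in the other 3 genes, reached its lower end here. The means were 1.44 ± 1.01 CPM (SD, n = 4) in A, 1.45 ± 0.710 (n = 5) in E, 2.99 ± 0.760 (n = 3) in B, 5.78 ± 0.309 (n = 2) in D and 9.42 ± 4.27 (n = 3) in C, and of the neighbours in this order only B and D did not overlap (all D rats above all B rats, as in 10.7% of genes tested).

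**Figure D1:**
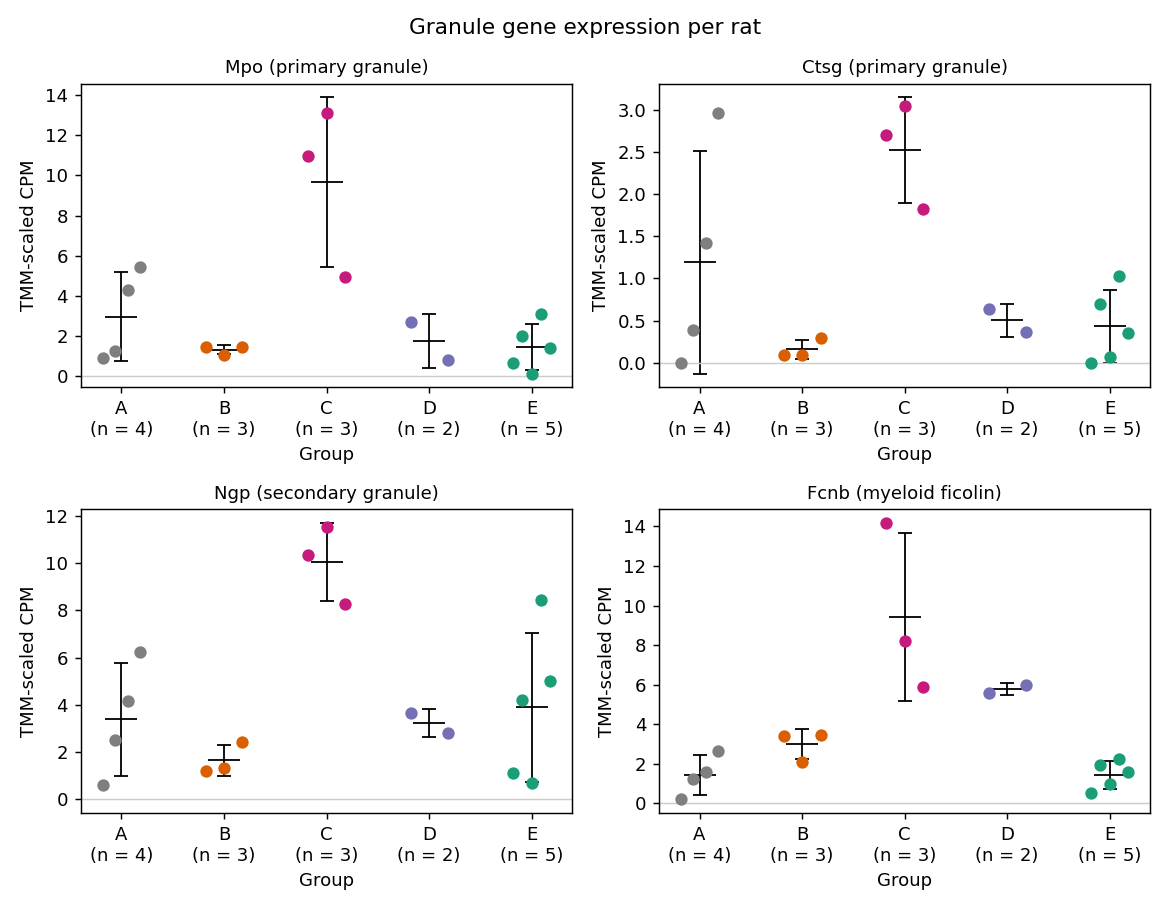
TMM-scaled CPM of Mpo, Ctsg, Ngp and Fcnb (y axes, each gene on its own linear scale) in groups A to E (x axis). Each point is a rat, the horizontal mark the group mean and the bar ± SD. Group C holds the highest mean of each gene, and for Fcnb the D rats (5.56 and 5.997 CPM) stand above all 9 intact rats.

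Injury was examined over stimulated and unstimulated rats alike, as the mean of groups B and C against the mean of A and E. The difference between C and B, on which the genes were selected, does not enter this comparison when both groups have equal weight and spread. For Fcnb the SD was 0.760 CPM in B and 4.27 CPM in C, so the spread was not equal on that scale. The rats of B and C also enter, so the comparison is not fully free of the selection. Fcnb rose by 1.88 on the log2 scale (SE 0.333, 3.67-fold), with an adjusted p of 0.000382 in edgeR's quasi-likelihood test (Benjamini-Hochberg over all genes). It was called, as were 7.3% of the genes tested, at an adjusted p under 0.05 with a log2(FC) beyond 1 in either direction. Mpo had a log2(FC) of 0.80 (SE 0.479, adjusted p = 0.199), Ngp 0.18 (SE 0.467, adjusted p = 0.790) and Ctsg -0.13 (SE 0.651, adjusted p = 0.894). These 3 genes did not pass the test, and each had a larger standard error than Fcnb. The value of Fcnb is a mean over stimulated and unstimulated rats, and its 2 parts were unequal: 1.05 for B against A and 2.70 for C against E.

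In single rats, 5 of the 6 rats of B and C were above all 9 intact rats in Fcnb, against 2 for Mpo, 1 for Ctsg and 2 for Ngp. A complete separation was found in none of the 4, and in 9.18% of the genes tested. The share of genes with 5 of the 6 rats above all intact rats was not counted. An exact permutation test over the rats, 2-sided on log2(CPM + 0.1), gave a mean difference of 2.00 for Fcnb with p = 0.0012 (adjusted p = 0.0144 over 12 such tests, where 0.0004 is the smallest p that 6 against 9 rats allow). The same exact permutation test gave p = 0.151 for Mpo, 0.474 for Ctsg and 0.440 for Ngp. Among the rats numbered 82 to 95 alone, Fcnb had a log2(FC) of 1.60 (adjusted p = 0.000433, edgeR).

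Group D was compared with intact rats, a comparison that holds no rat of B or C. Fcnb was higher in D by 1.99 on the log2 scale (SE 0.435, 3.99-fold, adjusted p = 0.0029, edgeR), and 8.11% of genes were called in this comparison. Both D rats were above all 9 intact rats, as in 16.3% of genes. Mpo (log2(FC) -0.18, SE 0.715), Ctsg (-0.45, SE 0.971) and Ngp (-0.15, SE 0.665) did not pass, with adjusted p between 0.759 and 0.885. Without rat 76 group D has a single rat, which is assumed to vary like the other groups, and the log2(FC) of Fcnb was then 1.94 (adjusted p = 0.0599). The exact permutation p of Fcnb was 0.0364, the smallest that 2 against 9 rats allow, or 0.218 adjusted over the 12 tests, so that this test could not pass after adjustment here and says nothing for or against the difference. The rats of D have numbers between 69 and 76, a series that holds only rat 70 of group A and rat 69 of group E besides. A term for the 2 number series rests on those intact rats. With it the log2(FC) was 1.19 for Mpo, 5.71 for Ctsg, 1.88 for Ngp and 3.92 for Fcnb. Within the series from 69 to 76, Fcnb was at 0.208 and 0.510 CPM in those intact rats against 5.56 and 5.997 CPM in D. Each of these intact rats was the lowest of its group in Fcnb. Rat 70 had 2 counts, fewer than the 3 taken as the floor of detection.

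Stimulation was also compared with no stimulation in intact rats, ±st(0) or E against A. The log2(FC) was -1.04 for Mpo (SE 0.608, adjusted p = 0.674), -1.48 for Ctsg (SE 0.790, adjusted p = 0.641), 0.18 for Ngp (SE 0.571, adjusted p = 0.958) and 0.00 for Fcnb (SE 0.512, adjusted p = 1.0). None of the 4 passed edgeR's test, and 0% of genes were called: 1297 genes had an unadjusted p under 0.05, DESeq2 called 15 and edgeR's exact test on A and E alone called 25. The exact permutation p over rats lay between 0.286 and 0.905 for the 4 genes, where 5 against 4 rats allow 0.0159. Without rat 84 of group A the log2(FC) was -0.53 for Ctsg and -0.58 for Mpo. Rats 70 and 69 were the lowest of their groups in Fcnb and at 0 in Ctsg; in Mpo and Ngp rat 70 was the lowest of A, and rat 69 was above only rat 86 in E.

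In the contrast that selected the genes, ±st(SCI), they stood higher in C than in B by 2.85 on the log2 scale for Mpo (SE 0.724), 3.90 for Ctsg (SE 1.08), 2.60 for Ngp (SE 0.722) and 1.65 for Fcnb (SE 0.477). As linear folds these are 7.23, 15.0, 6.06 and 3.14, but that of Ctsg stands over 5 counts in group B, and without rat 95 its log2 value was 4.59. All 3 rats of C were above all 3 of B in 4 of 4 genes, as in 3.2% of genes tested. In the model of all 17 rats 0% of genes were called in this contrast by edgeR, with 476 at an unadjusted p under 0.05, and DESeq2 called 0 as well. The study used edgeR's exact test on the pair of groups, by which it called these 4 genes. That test was not run here for this contrast, so the 0% belongs to a different method. In ±pim(st/SCI), D against C, the log2(FC) was -2.41 for Mpo (SE 0.795), -2.27 for Ctsg (SE 1.00), -1.63 for Ngp (SE 0.757) and -0.71 for Fcnb (SE 0.507). Both D rats lay below all C rats in Mpo, Ctsg and Ngp but not in Fcnb, against 9.23% of genes, and 0.0259% of all genes were called. Without rat 75 the value of Mpo was -3.54, and without rat 89 that of Fcnb was -0.29. Both D rats and no C rat have numbers from 69 to 76, and a term for the 2 number series, which rests on rats 69 and 70, turned the values of Ctsg (4.24), Ngp (0.68) and Fcnb (1.48) positive and left Mpo at -0.80; pimozide and the number series thus cannot be told apart in this contrast.

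The remaining contrasts share rats with the selecting one and were read in the same way. In ±SCI(0), B against A, Fcnb alone had a positive value, 1.05 (SE 0.508), against -1.15 (SE 0.727) for Mpo, -2.82 (SE 1.13) for Ctsg and -1.03 (SE 0.724) for Ngp. Without rat 84 the negative values were -0.69, -1.88 and -0.58 for Mpo, Ctsg and Ngp, and without rat 95 of group B those of Ctsg and Ngp were -3.51 and -1.41. Of all genes, 5.3% were called in this contrast. In ±st/SCI(0), C against A, the values were 1.70 (SE 0.603), 1.08 (SE 0.731), 1.57 (SE 0.607) and 2.70 (SE 0.468) for Mpo, Ctsg, Ngp and Fcnb. Of all genes, 7.13% were called there. Ngp and Fcnb had all C rats above all A rats, as did 16.4% of genes. For Ctsg this value rested in part on rat 84 and was 2.04 without it. In ±SCI(st), C against E, the values were 2.74 (SE 0.595), 2.56 (SE 0.765), 1.39 (SE 0.562) and 2.70 (SE 0.430) in the same order. Of all genes, 8.31% were called. In Mpo, Ctsg and Fcnb all C rats were above all E rats, as in 15.2% of genes.

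**Figure D2:**
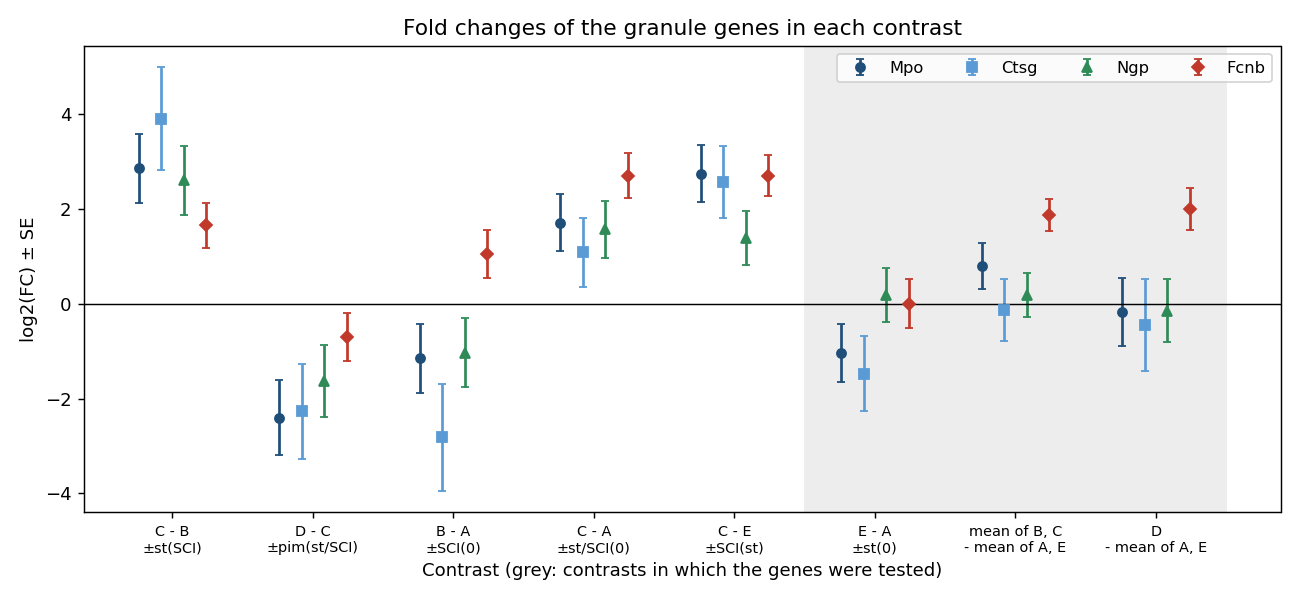
The log2(FC) (y axis, points, with SE as bars) of Mpo, Ctsg, Ngp and Fcnb in 8 contrasts (x axis), from 1 edgeR model of all 17 rats. The 3 contrasts on grey were tested; Fcnb stands at 1.88 for injury and 1.99 for group D, where the other 3 genes lie between -0.45 and 0.80, and in E - A the 4 genes lie between -1.48 (Ctsg) and 0.18 (Ngp).

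The 4 genes varied together from rat to rat, and over all 17 rats Fcnb did so less closely than the other 3. Over 17 rats Pearson's r of log2(CPM + 0.1) was 0.882 between Mpo and Ctsg, 0.865 between Mpo and Ngp and 0.936 between Ctsg and Ngp. Fcnb had an r of 0.651 with Mpo, 0.703 with Ctsg and 0.709 with Ngp. Once the mean of each group was subtracted, the r of Fcnb was 0.677 with Mpo, 0.919 with Ctsg and 0.837 with Ngp, beside 0.816 for Mpo and Ctsg, 0.873 for Mpo and Ngp and 0.931 for Ctsg and Ngp. Among the 9 intact rats alone it was 0.599, 0.892 and 0.883, beside 0.852, 0.829 and 0.885 for the same pairs. Within groups and among intact rats Fcnb thus ran as closely with Ctsg and Ngp as Mpo did, or nearly so, and only its r with Mpo stayed low. Over the rats numbered 82 to 95 its r was 0.776 with Mpo, 0.599 with Ctsg and 0.617 with Ngp, beside 0.908, 0.891 and 0.917. The rats of a pair of genes share their libraries, and the genes were chosen together, so these values describe the 17 libraries.

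**Figure D3:**
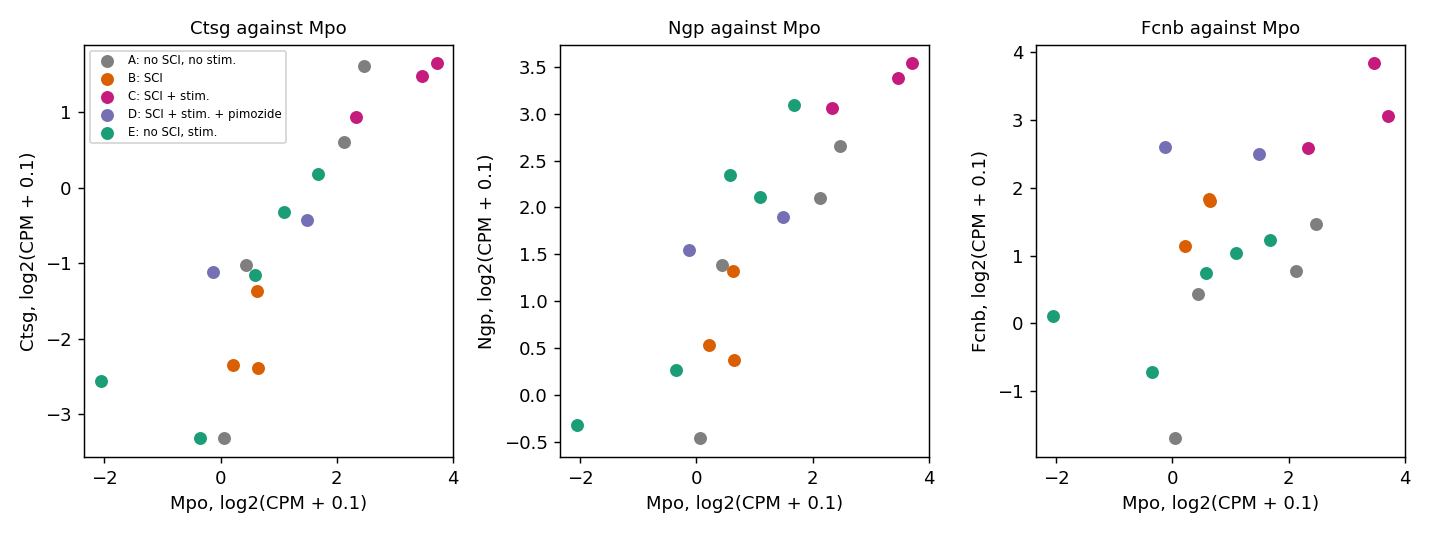
Ctsg, Ngp and Fcnb (y axes) against Mpo (x axes) as log2(CPM + 0.1), a point for each of 17 rats, coloured by group. Ctsg and Ngp run along with Mpo across groups (r = 0.882 and 0.865), whereas in Fcnb most injured rats lie above intact rats of like Mpo (r = 0.651 over all rats).

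The balance of the transcripts within a rat was read from their counts. For each Ngp count the Fcnb counts numbered 0.333 to 0.5 in A (4 rats) and 0.267 to 1.4 in E (5 rats), of which the highest was rat 86 with 14 and 10 counts. The ratio was 1.44 to 2.85 in B, 0.712 to 1.37 in C, and 1.53 and 2.13 in the 2 rats of D. All 8 injured rats were thus above 8 of the 9 intact rats. How many other pairs of genes separate the rats as far was not counted, so this is a description. Fcnb counts per Mpo count were 2.0 to 2.4 in B, 0.627 to 1.29 in C, 2.05 and 7.33 in D, 0.222 to 1.0 in A and 0.727 to 7.0 in E, where the highest was again rat 86, with 2 Mpo counts. Group C thus lay below B and D in this ratio and partly overlapped with A and E.

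The ratio of the secondary to the primary granule gene overlapped between A and B and was highest in E. Ngp counts per Mpo count were 0.667 to 2.0 in A, 0.813 to 1.67 in B, 0.880 to 1.67 in C, 1.34 and 3.44 in D, and 1.63 to 5.0 in E. Summed over the rats of a group, the ratio was 1.16, 1.24, 1.04, 1.74 and 2.64 in A, B, C, D and E, so that group E had the most Ngp for its Mpo while its rats overlapped with A. Ctsg counts per Mpo count, both of primary granules, were 0.4, 0.119, 0.262, 0.277 and 0.294 in the same sums. The value of B rests on 5 Ctsg counts against 42 Mpo counts.

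The genes most like each member in pattern over the 17 rats were sought among genes whose mean reached 1 CPM (14514, or 14515 for Ctsg, which is itself below that level). A symbol was at hand for 99 genes only, all picked by the study on these rats. For Mpo the 5 highest were Camp (r = 0.894), which encodes the cathelicidin of secondary granules, LOC103690079 (0.885), Ngp (0.865) and the defensin genes Defa5 (0.855) and Np4 (0.853), and no gene without a symbol ranked above them. For Ctsg they were Ngp (0.936), Camp (0.913), Np4 (0.906), S100a9 (0.902), which encodes a calprotectin subunit, and Defa5 (0.898), and these too were the 5 highest of all genes at that level. Ngp was followed by S100a9 (0.937), S100a8 (0.897), the other calprotectin subunit, Np4 (0.896), the blood precursor gene Hemgn (0.886) and LOC103690079 (0.883).

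Fcnb was unlike the rest in this respect. Its nearest gene with a symbol was Robo-1, with an r of 0.866 and rank 91 among all genes, followed by the defensin gene RatNP-3b at rank 398 (0.819) and S100a9 at rank 594 (0.804). Nfe2 (0.793) and S100a8 (0.792) stood at ranks 728 and 735. An r above 0.8 was found with 639 genes for Fcnb, and with 16, 19 and 14 genes for Mpo, Ctsg and Ngp. Of the 100 genes most like Fcnb, 68 were called in the injury comparison, against 7, 6 and 6 of the 100 most like Mpo, Ctsg and Ngp and the 7.3% of all genes. In C against E, 71 of the 100 were called for Fcnb and 38, 39 and 35 for Mpo, Ctsg and Ngp, beside 8.31% of all genes. The libraries are the same ones in which the likeness was measured, so these counts are a description.

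The other granule and blood cell genes could be looked up only in part. Lists of 134 genes in 14 lists were drawn up, and 29 genes in 8 lists had an identifier, all of them through the same 99 genes of the study, so that they are no independent evidence of direction. Genes of spinal cord, muscle, monocytes, lymphocytes, granulocyte transcription factors and cell division had none, and the labelled tissue was thus not checked against its markers. Besides the members, 4 primary granule genes (Elane, Np4, Defa5 and RatNP-3b), 1 secondary granule gene (Camp), the mature neutrophil genes S100a8 and S100a9, the eosinophil gene Epx, 11 erythroid precursor genes, 5 megakaryocyte genes and the collagenase gene Mmp13 of bone and cartilage were matched.

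None of these 25 genes was called for injury, for group D against intact rats or for ±st(0), where 7.3%, 8.11% and 0% of all genes were called, so that a count of 0 is near the background. In the injury comparison the 4 primary granule genes had a median log2(FC) of 0.65, with RatNP-3b highest at 1.10 (SE 0.549, adjusted p = 0.123), beside a median of -0.02 over all genes. Camp had 0.48 (SE 0.435), S100a8 0.74 (SE 0.533) and S100a9 0.54 (SE 0.500), while Epx, the eosinophil peroxidase gene, had -1.23 (SE 0.630), none of them past the test. The erythroid genes had a median of 0.33, from -0.58 for Car1, a carbonic anhydrase gene, to 0.63 for Klf1, an erythroid transcription factor gene, and the megakaryocyte genes 0.55, from 0.36 for Itga2b to 1.68 for Ppbp (adjusted p = 0.0574), both of platelets. Mmp13 had 0.29.

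In ±st(SCI) all 25 had positive values, as Mpo, Ctsg, Ngp and Fcnb had, but they too come from the study's selections on these rats. The primary granule genes other than the members had a median of 2.90 (Elane, the elastase gene, lowest at 2.35), the erythroid genes 2.29 (Epb42 1.44 to Car1 3.79) and the megakaryocyte genes 1.86 (Itga2b 1.12 to Ppbp 2.91), against 0.00 over all genes. Camp was at 2.16, S100a8 at 2.36, S100a9 at 2.34, Epx at 2.30 and Mmp13 at 3.55. In ±SCI(st), which holds the same C rats and is likewise a description, the median was 2.59 for those primary granule genes, 2.06 for the erythroid and 1.90 for the megakaryocyte genes, against -0.02 over all genes.

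Summed levels of the lists had their highest median in group C, as Mpo, Ctsg, Ngp and Fcnb had. The erythroid and megakaryocyte sums ranked some rats as these 4 genes did and others differently. In both sums rat 70 was the lowest of A and rat 87 the highest of E, as in the 4 genes. Within C the megakaryocyte sum ranked the rats as Mpo, Ctsg and Ngp did. The 11 erythroid genes summed to 7.92 to 64.8 CPM in group A, 15.9 to 22.0 in B, 54.8 to 110.3 in C, 12.2 to 26.9 in D and 10.9 to 35.1 in E, with at most 1 gene at 0 in a rat. Within C the erythroid sum was highest in rat 93, which was lowest of C in all 4 members, and in A it was highest in rat 83 (64.8 CPM), above rat 89 of C (54.8 CPM), whereas the 4 members were highest in rat 84. The 5 megakaryocyte genes summed to 5.00 to 21.0 CPM in A, 5.87 to 8.44 in B, 17.2 to 22.9 in C, 7.41 to 8.81 in D and 4.83 to 8.54 in E. Mmp13 was at 7.90 to 9.91 CPM in C, above 0.833 to 5.13 in A, 0.0962 to 1.28 in B, 0.570 to 1.45 in D and 0.170 to 3.85 in E. S100a8 and S100a9 together were at 55.1 to 87.4 CPM in C, 12.3 to 16.7 in B and 15.3 to 20.0 in D, but 3.13 to 48.8 in A and 3.83 to 55.9 in E. Epx was at 0 in 1 rat of A and reached 6.12 CPM in another, above its 1.22 to 1.84 CPM in C. The erythroid and megakaryocyte sums and the single gene Mmp13, the only match of the 12 bone and cartilage genes, thus had their highest medians in group C, as the 4 members had. In D, where Fcnb was high, none of them was above the range of group A; their part in the results was not tested.

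**Figure D4:**
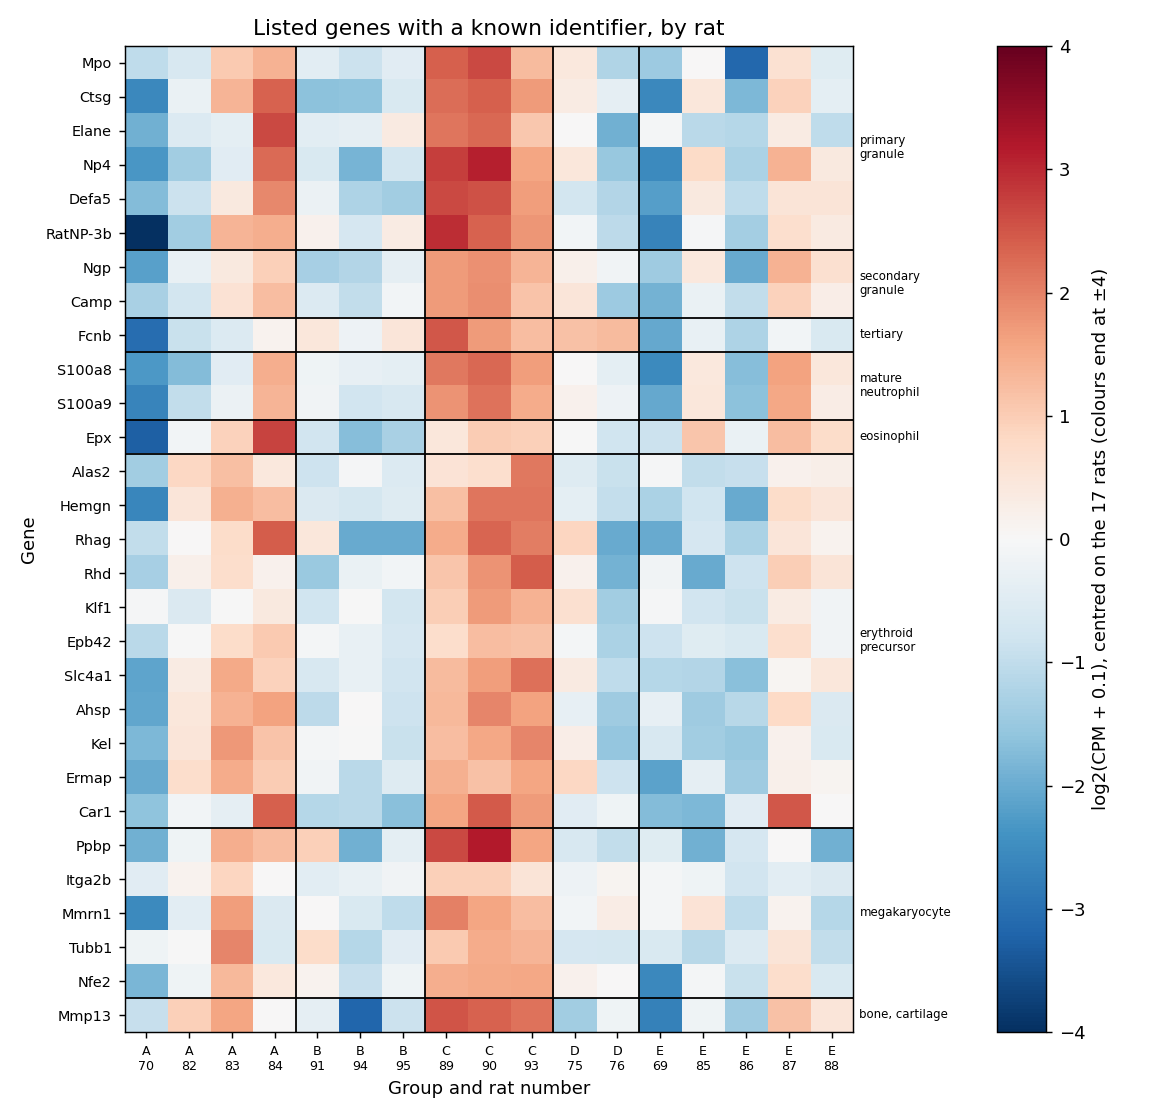
The 29 listed genes with a known identifier (rows, by list) in 17 rats (columns, by group and rat number), as log2(CPM + 0.1) centred on the mean of the 17 rats. Red is above and blue below the mean; the 3 rats of group C are red in nearly every row, and in the 2 rats of group D Fcnb is red while most other rows are pale or blue.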

How the data were processed

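Spinal cord RNA of 17 rats was sequenced after ribosomal depletion (TruSeq Stranded Total RNA, single-end reads). The authors trimmed adapters with Trim Galore (0.4.1), aligned reads with STAR (2.5.0a) and counted them per Ensembl gene (release 79) with GeneCounts, which leaves out reads that align to several places; tool versions are from the submitters' processing notes. The deposited values are raw counts, not normalized. The genome build differs between the methods and the processing notes, and the strandedness column used is not given in the sources used here, so reads of an antisense gene could be included.

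Counts were fitted in R 4.3.3 with edgeR 4.0.16 (TMM, filterByExpr, glmQLFit, glmQLFTest) in a model of the 5 groups, with Benjamini-Hochberg adjustment over all 15460 genes. Calls required an adjusted p under 0.05 and a log2(FC) beyond 1 in either direction. The fit was tested on simulated data. Other tables were made in Python with scipy.

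The members and lists were chosen with earlier results of these data known. Named were the 4 members, the 5 genes with a symbol most like each in pattern, and the highest and lowest gene of each list for injury and for C against B; genes named beyond these complete a small list. Symbols came from the study's own gene table, since the reference tables hold no Ensembl identifiers. Alternatives were DESeq2 1.42.0, RLE or total-count scaling, other filters, a robust fit, no fold limit, a term for the 2 series of rat numbers, rats 82 to 95 alone, edgeR's exact test for A and E, a pseudocount of 1 in place of 0.1, each rat left out, and exact permutation tests; those for injury and group D were chosen after seeing the data. Rats are separate animals with unique numbers. Intervals and floors cover counting error only.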

Additional observations from a re-analysis of the deposited data

How the results depend on the processing

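The rise of Fcnb in the mean of B and C against that of A and E was called under every setting run. Its log2(FC) was 1.67 to 2.10 when 1 rat was left out (adjusted p 0.000176 to 0.00171, edgeR) and 1.61 with a term for the number series. Rats of C, which took part in the selection of Fcnb, entered every one of these settings. Injury without stimulation, B against A, was not tested for Fcnb. Its log2(FC) there was 1.05 (SE 0.508), below the 2.70 (SE 0.430) of C against E. The rise of Fcnb in group D had a log2(FC) of 1.83 to 2.23 when 1 rat was left out, and 3.92 with the number series, and was not past the threshold without rat 76, which leaves 1 rat in D; the permutation test over rats (difference 2.18) could not pass with 2 rats once adjusted. With no limit on fold change, 6025 genes were called for injury and 4545 for group D. With the fold limit, the 1254 genes called for group D became 575 without rat 76 and 1931 without rat 75, the lowest and highest counts when 1 rat was left out. Called genes in ±st(0) were 15 with DESeq2, 25 with the exact test on A and E alone, and 0 to 49 when 1 rat was left out, the 49 without rat 82. In ±pim(st/SCI) 4 genes were called by edgeR, 17 without a filter on low counts, 1 in the robust fit and 32 by DESeq2; the cause was not tested.

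Signs changed only for values that did not pass a test or were not tested. For injury, Ctsg had 0.70 as a mean difference between rats and -0.47 to 0.35 when 1 rat was left out; Ngp had -0.10 with the number series, -0.11 in rats 82 to 95 and -0.0097 to 0.42 when 1 rat was left out. For ±st(0), Fcnb had -3.1e-05 with RLE scaling, -0.0092 with the number series, -0.12 in rats 82 to 95 and -0.34 to 0.46 when 1 rat was left out, and Ngp -0.31 to 0.64. For group D against intact rats, the number series gave 1.19 for Mpo, 5.71 for Ctsg and 1.88 for Ngp, the mean differences between rats were 0.014, 0.26 and 0.26, and leaving out 1 rat gave -1.32 to 0.40, -0.93 to 0.030 and -0.35 to 0.095. For D against C, the number series gave 4.24 for Ctsg, 0.68 for Ngp, 1.48 for Fcnb and -0.80 for Mpo; that term rests on rats 69 and 70, both at 0 in Ctsg. Of 536 alternative values of the members, 497 were counted as the same and 34 changed sign. In the tested comparisons, the same meant an unchanged direction and side of the threshold, and 2 values fell below it. In the contrasts without a test, it meant an unchanged direction and a shift smaller than the SE of the main value, and 3 values moved further. No paired analysis was possible because rat numbers are not shared between groups.

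With 2 to 5 rats a group and 0 to 163 counts a gene, small differences were not detectable.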
